A study of Mus musculus with 4 samples.

Results

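Cultured classical Th1 cells were set against the wild-type spleen cells of the array labelled naive, gene by gene, on 1 Affymetrix gene array for each side. The comparison used 2 of the 4 arrays of a mouse series, and every gene that the platform's annotation gave to a probe set with exactly 1 symbol, 22180 genes in all. Where a gene had several such probe sets, the one with the highest mean over the 4 arrays stood for it, so that the choice of genes used no difference between the arrays. The cTh1 cells (classical Th1) were CD4+ CD62Lhi cells from the spleen of wild-type C57BL/6 mice aged 8 weeks, cultured for 5 days on beads with antibodies against CD3 and CD28, with 2 ng/ml IL-12, 50 U/ml IL-2 and an antibody that blocks IL-4. The cells of the array labelled naive had, by their label, the same wild-type genotype, age, organ and sort, and no culture. The other arrays came from thymocytes of CIITAtg mice of that age and background, which carry a transgene for CIITA, the activator of class II antigen presentation. Those thymocytes were sorted as CXCR3+ (nTh1, natural Th1) or CXCR3- (TT naive) CD62L+ CD4+ cells, and their values are given beside the comparison. The sources used here give neither the promoter of the transgene nor the number of mice behind an array.

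Th1 cells are the CD4 T cells that make interferon gamma. A naive cell takes this path when its receptor and CD28 are engaged while IL-12 is present, which acts through STAT4 and together with the factor T-bet. IL-2 keeps such cells growing through STAT5, and activated T cells turn to glycolysis and to the synthesis of lipids for new membranes. By design, the cultured cells therefore differ from uncultured cells by activation, cytokines and time in culture all at once. Any difference in growth or in the sex of the mice adds to these, and they cannot be told apart here.

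Values are log2 summaries made by RMA, a method that corrects background, brings arrays to a common distribution and combines the probes of a set. A difference of 1 on this scale is a 2-fold difference, and all differences are cTh1 minus the array labelled naive unless another baseline is named. No difference has a replicate check, since each group is 1 array, so tests were not run. The only measurable error was the spread between probe sets of 1 gene, whose differences had an SD of 0.384 over 471 genes, and this covers neither animals nor arrays. Levels of different genes are not compared, because probe sets differ in brightness. Members of families with near-identical copies, such as the granzyme, Ly6, OAS, IFITM, guanylate-binding protein, killer cell lectin receptor, LILR and class II genes, are uncertain, since probes can read more than 1 of them. In bulk RNA, fewer cells of a type and less RNA per cell cannot be told apart.

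The genes of the label were read first. Cd4 was at 12.72 in cTh1 and 12.33 on the array labelled naive, and T cell genes such as Cd3e (13.11 in cTh1, 12.88 on the array labelled naive) were alike. All 15 measured T cell identity genes lay within 2-fold, between -0.60 for Cd5 and 0.46 for Thy1. The naive cell genes Ccr7, Lef1, Klf2 and S1pr1 were at 12.32, 12.63, 10.15 and 10.91 on the array labelled naive. They were no higher there than in TT naive cells, at 12.58, 12.68, 10.96 and 11.18. The array labelled naive also carried genes that a resting naive cell is not known for. Zbtb16, which encodes PLZF, the factor of innate-like T cells, was at 12.23 there, against 9.36 in TT naive cells. Tbx21, the gene of T-bet, was at 9.81 there and at 7.11 in TT naive cells, and Mki67, the proliferation marker Ki-67, at 11.22 and 10.24. H2-Aa, a class II gene, was at 12.66 there, 12.66 in nTh1 and 12.29 in TT naive cells. The array is therefore called by its label throughout, and TT naive values are printed beside many results, since several turn or change in size with the baseline. Y-linked Eif2s3y was at 4.97 in cTh1, 5.16 in nTh1, 8.55 in TT naive and 8.61 on the array labelled naive. The mice behind these arrays thus differed in sex-linked transcripts, and cTh1 differed from both baselines in this way.

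Of the 12835 genes that reached 6.61, the median over all probe sets and arrays, on either array, 659 were at least 2-fold higher in cTh1, which is 5.13%, and 430 were at least 2-fold lower, which is 3.35%. These shares are the background for every count below. In each list only members that reached this level were counted, so a count set against all measured members understates the share to compare with them. At least 4-fold differences numbered 153 higher and 89 lower, and at least 16-fold differences 13 higher and 9 lower. The median difference was -0.02 over these genes and -0.01 over all 22180. Against TT naive cells, the same count gave 921 of 12728 genes higher (7.24%) and 384 lower (3.02%). That comparison shares the cTh1 array, so it is no independent check.

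**Figure D1:**
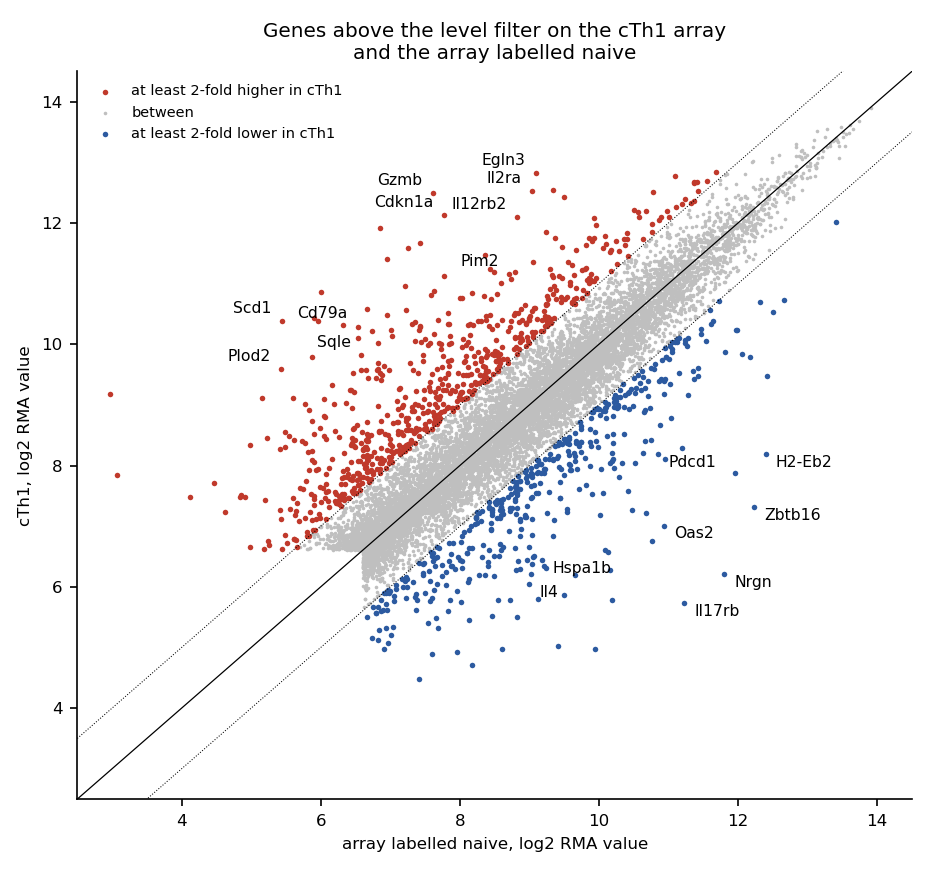
Each point is a gene above the level filter, with its log2 RMA value on the array labelled naive along the x axis and in cTh1 along the y axis. Points outside the dotted lines differ by at least 2-fold, 659 of them above the lines (red) and 430 below (blue). Gzmb, Egln3 and Il2ra stand far above the diagonal and Zbtb16, Nrgn and Il17rb far below it.

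The highest differences included those of an effector protease, lipid and collagen modifying enzymes, receptors and markers of other cell types. Lilrb4a, an inhibitory receptor of the immunoglobulin superfamily, was at 11.92 in cTh1 and 6.85 on the array labelled naive, 33.6-fold higher. Scd1, the desaturase that makes monounsaturated fatty acids, was at 10.38 in cTh1 and 5.44 on the array labelled naive, 30.6-fold higher. Gzmb, the cytotoxic protease granzyme B, was at 12.50 in cTh1 and 7.61 on the array labelled naive, 29.6-fold higher. On the TT naive array these 3 genes were lower still, at 4.96, 4.66 and 5.59. Serpinb5, a serpin, followed with 10.87 in cTh1 and 6.01 on the array labelled naive. Plod2, which hydroxylates lysines of collagen, was at 9.59 in cTh1 and 5.43 on the array labelled naive, and Cxcr2, a receptor of neutrophil-attracting chemokines, at 10.58 in cTh1 and 6.66 on the array labelled naive. Fam183b was at 9.79 in cTh1 and 5.87 on the array labelled naive. For Plod2, Cxcr2 and Fam183b, the TT naive values of 5.36, 6.67 and 5.78 were close to those of the array labelled naive.

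The lowest differences included genes better known from neurons. Nrgn, the calmodulin-binding protein neurogranin, was at 6.21 in cTh1 and 11.80 on the array labelled naive. Chl1, a neural adhesion protein, was at 4.98 in cTh1 and 9.94 on the array labelled naive, and Map2, a microtubule protein of dendrites, at 6.27 in cTh1 and 10.15 on the array labelled naive. The same genes were high in TT naive thymocytes too, with Nrgn at 11.33, Chl1 at 9.31 and Map2 at 9.83. Il17rb, a chain of the IL-25 receptor, was at 5.73 in cTh1 and 11.23 on the array labelled naive. Carriers of peptides and amino acids were also at this end. Slc15a1, a transporter of small peptides, was at 5.86 in cTh1 and 9.49 on the array labelled naive, and Slc16a10, a carrier of aromatic amino acids, at 6.61 in cTh1 and 10.08 on the array labelled naive. Cntnap1, an axonal contact protein, was at 6.58 in cTh1 and 10.13 on the array labelled naive, and TT naive cells had 7.36, nearer to the cTh1 value.

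The Th1 programme was higher in cTh1 from the cytokine receptors to the products. This list had 27 measured genes, 25 of them above the level filter. Past 2-fold were 13 higher and 1 lower, and the median difference over all 27 was 0.98. Against TT naive cells the list had 20 higher and 2 lower, with a median of 2.26. Among the receptors, Il12rb2, the inducible chain of the IL-12 receptor, was at 12.10 in cTh1, 8.93 in nTh1, 6.69 in TT naive and 8.83 on the array labelled naive. Its partner chain Il12rb1 differed less, at 10.06 in cTh1 and 9.16 on the array labelled naive. Both chains of the IL-18 receptor were above 2-fold, with Il18rap at 10.85 in cTh1 and 8.17 on the array labelled naive, and Il18r1 at 11.78 in cTh1 and 10.09 on the array labelled naive. The IL-12 and IL-18 receptors thus stood highest in cTh1 of all 4 arrays. The chains of the interferon gamma receptor went opposite ways. Ifngr1, the ligand-binding chain, was at 12.83 in cTh1 and 11.69 on the array labelled naive, and Ifngr2, the signalling chain, at 9.67 in cTh1 and 10.65 on the array labelled naive.

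Among the factors, Runx3, which works with T-bet, was at 11.09 in cTh1 and 9.86 on the array labelled naive, and Stat4, which carries the IL-12 signal, at 12.79 in cTh1 and 11.81 on the array labelled naive. Bhlhe40, a factor needed for cytokine output of Th1 cells, was at 11.56 in cTh1 and 10.17 on the array labelled naive. Tbx21 itself was 1.45 higher than on the array labelled naive and 4.14 higher than in TT naive cells, so its size depended strongly on the baseline. Hlx, a homeobox partner of T-bet, was at 7.28 in cTh1 and 6.86 on the array labelled naive. Eomes, the T-box relative of T-bet, went the other way and was lowest in cTh1, with 7.94 in cTh1, 10.68 in nTh1, 8.84 in TT naive and 10.03 on the array labelled naive. Id3, the inhibitor of E proteins, was at 8.37 in cTh1 and 10.20 on the array labelled naive, while its relative Id2 did not differ by more than 0.03.

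Among the products, Furin, the protease that cuts precursor proteins and a known target of IL-12 and STAT4, was at 12.42 in cTh1 and 9.50 on the array labelled naive, a difference of 2.92. Ccl5, a chemokine, was at 11.11 in cTh1 and 9.34 on the array labelled naive, and Lta, lymphotoxin alpha, at 9.23 in cTh1 and 7.93 on the array labelled naive. Tnf (0.66), Fasl (0.19) and the chemokine Ccl4 (0.12) stayed under 2-fold, although Tnf was 1.19 and Fasl 2.26 higher than in TT naive cells. Csf2, which encodes GM-CSF, depended on the probe set. The one used here, with the higher mean over the 4 arrays, was at 6.21 in cTh1 and 5.84 on the array labelled naive and did not pass the filter, and a second one was at 7.87 in cTh1 and 4.85 on the array labelled naive. The one member at least 2-fold lower was Tnfsf11, the TNF family ligand RANKL, at 7.54 in cTh1 and 10.06 on the array labelled naive, against 8.56 in TT naive cells.

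The cytotoxic genes were split between a few granzymes and the granule machinery. Of 9 measured granzyme genes, 5 passed the filter, and 4 of those were past 2-fold higher. Gzmk was at 10.96 in cTh1 and 7.22 on the array labelled naive, Gzma at 10.52 in cTh1 and 7.83 on the array labelled naive, and Gzmc at 6.72 in cTh1 and 5.51 on the array labelled naive. Gzmm, a further granzyme, differed by -0.05. Prf1, the pore-forming perforin, was at 9.87 in cTh1 and 9.10 on the array labelled naive, and the highest value of the 4 arrays was 10.81 in nTh1. Stx11, a syntaxin of granule release, was the fifth gene past 2-fold, with 9.50 in cTh1 and 8.05 on the array labelled naive. Other parts of the release apparatus did not follow, with Unc13d (Munc13-4) at 0.10, Lamp1 at -0.28, Rab27a at -0.33 and Srgn, the proteoglycan core of granules, at -0.07. The list of 25 measured genes, 21 of them above the filter, had 5 past 2-fold, all higher, and a median of 0.24. With TT naive cells as the baseline there were 9, all higher.

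Of the IL-2 receptor chains, alpha and beta were among the genes read here and the common gamma chain was not. Only the alpha chain reached 2-fold against the array labelled naive. Il2ra, the alpha chain that gives high affinity for IL-2, was at 12.52 in cTh1, 10.08 in nTh1, 9.66 in TT naive and 9.04 on the array labelled naive, 11.1-fold higher than on the last. It was the only one of 12 measured genes of the common gamma chain receptors and their kinases and STATs to reach 2-fold. Il2rb, the beta chain, was 0.81 higher, and 1.68 higher than in TT naive cells, and Il15ra 0.76 higher. Il7r (0.13), Stat5a (0.04), Stat5b (0.15) and Jak1 (-0.03) were near 0.

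Feedback genes that cytokines switch on through STATs were higher as well. Pim2, a survival kinase, was at 11.16 in cTh1, 9.47 in nTh1 and 8.71 on the array labelled naive, and Pim1 at 12.09 in cTh1, 9.34 in nTh1, 10.04 in TT naive and 10.58 on the array labelled naive. Both kinases were thus highest in cTh1, while Pim3 was at -0.63. Among suppressors of cytokine signalling, Socs3 was at 10.01 in cTh1 and 7.87 on the array labelled naive, Socs1 at 10.33 in cTh1 and 8.95 on the array labelled naive, and Cish, a STAT5 target, at 9.09 in cTh1 and 8.06 on the array labelled naive. Socs2, another STAT5 target, was 0.73 higher with the probe set used here and 3.95 higher with a second probe set, at 10.35 in cTh1 and 6.40 on the array labelled naive. Socs4, Socs5, Socs6 and Socs7, which cytokines induce less, lay between -0.37 and -0.12. Past 2-fold were 5 of the 11 genes of both families, all higher, and the median was 0.73. Second probe sets of Socs3 and Pim1, both near the level filter, gave 0.62 and 0.40.

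**Figure D2:**
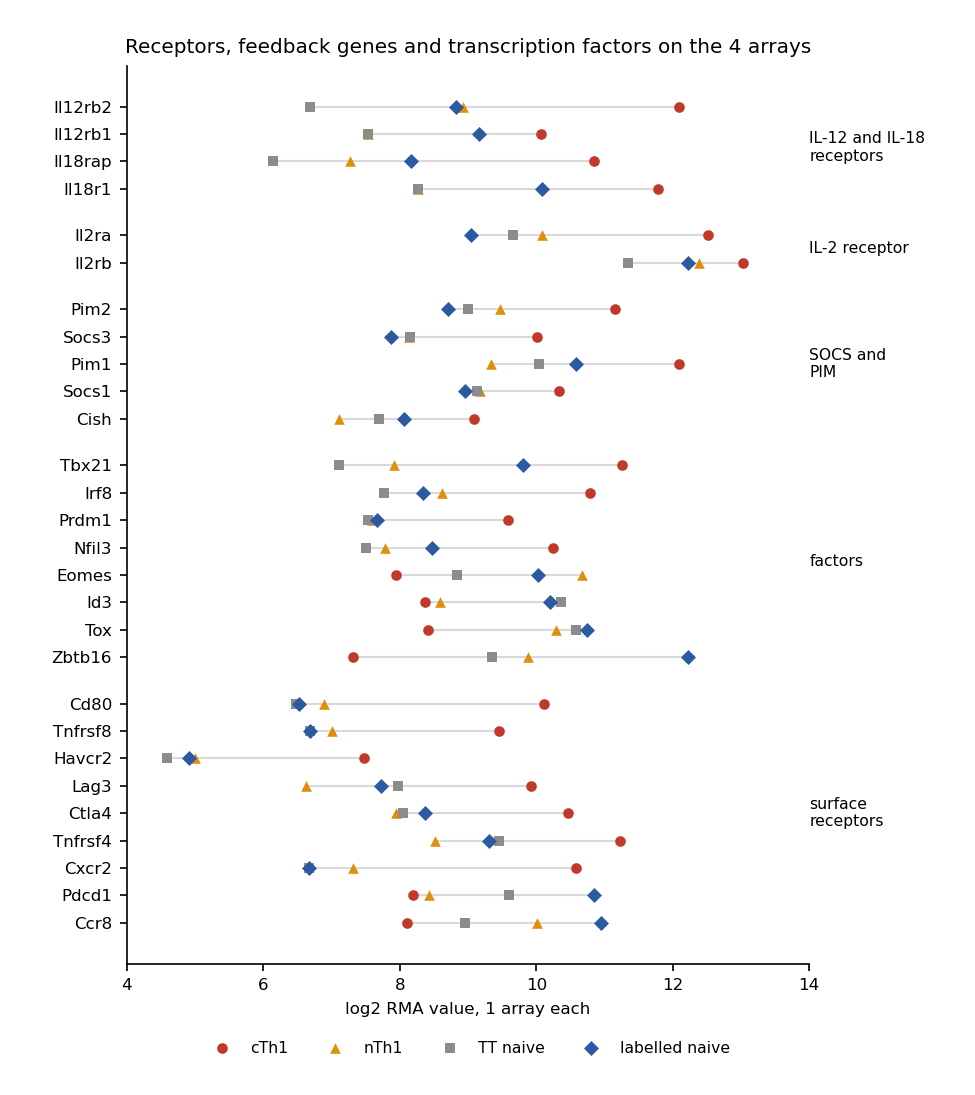
Log2 RMA values (x axis) of receptors, SOCS and PIM genes and transcription factors on the 4 arrays, 1 point for each array. The cTh1 point (red circle) lies to the right of the other 3 for the cytokine receptors and the PIM and SOCS genes shown, and to their left for Eomes, Id3, Tox, Zbtb16, Pdcd1 and Ccr8.

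Receptors and ligands of the TNF and B7 families were mostly higher. Cd80, the B7 ligand of CD28 and CTLA-4, was at 10.11 in cTh1 and 6.53 on the array labelled naive, a 12.0-fold difference. Tnfrsf8 (CD30) was at 9.45 in cTh1 and 6.68 on the array labelled naive, Tnfrsf4 (OX40) at 11.23 in cTh1 and 9.30 on the array labelled naive, and Tnfrsf18 (GITR) at 11.66 in cTh1 and 10.10 on the array labelled naive. Cd86, the other B7 ligand, was only 0.59 higher, and Cd28 itself was at -0.28. Tnfsf14 (LIGHT), a ligand of the herpesvirus entry mediator, was the exception at 7.12 in cTh1 and 9.04 on the array labelled naive. Its TT naive value of 7.36 was near that of cTh1. The list had 25 measured genes and 24 above the filter. Of these 7 reached 2-fold upwards and 1 downwards, and the median was 0.66.

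Inhibitory receptors did not move as a group. Havcr2 (TIM-3) was at 7.47 in cTh1 and 4.91 on the array labelled naive, Lag3 at 9.92 in cTh1 and 7.73 on the array labelled naive, and Ctla4 at 10.46 in cTh1 and 8.37 on the array labelled naive. In contrast, Pdcd1 (PD-1) was at 8.19 in cTh1 and 10.85 on the array labelled naive, and Cd160 at 5.90 in cTh1 and 7.51 on the array labelled naive. Of these, Pdcd1 was also lower than the 9.59 of TT naive cells, and Cd160 was close to their 6.04. Tigit (-0.13), Cd96 (-0.14) and Btla (-0.29) were near equal, but Tigit was 1.46 higher than in TT naive cells. The 17 measured genes gave 5 higher, 2 lower and a median of -0.12, which became 0.24 against TT naive cells.

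Genes shared with regulatory T cells differed in both directions, and their defining factor differed little. Foxp3, their lineage factor, was at 9.21 in cTh1, 7.29 in nTh1, 9.87 in TT naive and 8.82 on the array labelled naive. Ebi3, a chain of IL-35 and IL-27, was at 9.58 in cTh1 and 7.33 on the array labelled naive, and Lrrc32, the GARP protein that holds latent TGF-beta, at 10.40 in cTh1 and 8.37 on the array labelled naive. Entpd1 (CD39), which breaks down ATP, was at 9.79 in cTh1 and 8.38 on the array labelled naive, while Nt5e (CD73), which acts after it, was at 9.98 in cTh1 and 11.27 on the array labelled naive. Ikzf2 (Helios) was at 9.42 in cTh1 and 10.89 on the array labelled naive, and Nrp1, a marker of thymus-derived regulatory cells, at 7.68 in cTh1 and 9.81 on the array labelled naive. Nrp1 was at 7.54 in TT naive cells, slightly under cTh1. Past 2-fold were 8 of 21 measured genes higher and 6 lower, against 11 higher and 2 lower with TT naive cells as the baseline. A second Ebi3 probe set below the filter differed by 0.14.

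Transcription factors of effector cells differed in both directions. Of 37 measured genes, 36 passed the filter, with 6 past 2-fold higher and 10 lower, and with 8 higher and 6 lower against TT naive cells. Irf8 was at 10.79 in cTh1 and 8.35 on the array labelled naive, Prdm1, the gene of Blimp-1, at 9.59 in cTh1 and 7.67 on the array labelled naive, and Nfil3 at 10.24 in cTh1 and 8.47 on the array labelled naive. All 3 act in effector lymphocytes, and the other arrays had them no higher than 8.62, 7.67 and 8.47. A second Irf8 probe set, below the filter, differed by 0.61. Tox, a factor of thymic selection and of persistently stimulated T cells, was at 8.42 in cTh1 and 10.75 on the array labelled naive, and Vdr, the vitamin D receptor, at 7.62 in cTh1 and 9.72 on the array labelled naive. Vdr was at 7.48 in TT naive cells, so its direction turned with that baseline. Some of the genes that a T cell receptor signal induces within hours were lower in cTh1. Nr4a1 was at 9.78 in cTh1 and 12.17 on the array labelled naive, with 11.51 in TT naive cells, and all 3 NR4A genes lay between -2.38 and -2.11. Other early factors went the other way by less than 2-fold, with Jun at 0.84 and Egr1 at 0.44. Of the dual-specificity phosphatases of MAP kinases, 3 of 6 were at least 2-fold lower, among them Dusp10 at 9.83 in cTh1 and 12.06 on the array labelled naive. Ier3, an early response gene, was the only one of 33 measured genes of this list at least 2-fold higher, at 10.31 in cTh1 and 8.18 on the array labelled naive, and 10 were lower. The counts against TT naive cells were 3 higher and 9 lower.

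Genes that mark innate-like T cells were mostly lower. Of 26 measured genes, 23 passed the filter, with 11 at least 2-fold lower and 2 higher, and the median over all 26 was -0.62. Against TT naive cells 7 were lower and 3 higher, and the median was -0.24. Zbtb16 was at 7.31 in cTh1, 9.88 in nTh1, 9.36 in TT naive and 12.23 on the array labelled naive, so the difference of -4.91 against the last was -2.05 against TT naive cells. Xcl1, the chemokine lymphotactin, was at 7.18 in cTh1 and 10.02 on the array labelled naive, but TT naive cells were at 7.05. Il4 was at 6.04 in cTh1 and 8.99 on the array labelled naive, against 7.39 in TT naive cells. Drosha, the nuclease that cuts microRNA precursors, was at 8.66 in cTh1 and 10.88 on the array labelled naive, with 10.68 and 10.51 in nTh1 and TT naive cells. Klrb1c, which encodes NK1.1, did not pass the filter, at 4.73 in cTh1 and 6.32 on the array labelled naive. The 2 genes at least 2-fold higher were Plac8, at 12.21 in cTh1 and 10.50 on the array labelled naive, and Slamf1, at 10.75 in cTh1 and 9.39 on the array labelled naive.

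Chemokine receptors differed in kind rather than in sum. Beside Cxcr2, Ccr6, a receptor of Th17 and mucosal lymphocytes, was at 8.32 in cTh1 and 6.48 on the array labelled naive. Lower in cTh1 were receptors of Th2, skin and gut homing. Ccr4 was at 9.17 in cTh1 and 11.28 on the array labelled naive, Ccr8 at 8.10 in cTh1 and 10.95 on the array labelled naive, Ccr10 at 6.37 in cTh1 and 9.03 on the array labelled naive, and Ccr9 at 6.43 in cTh1 and 8.84 on the array labelled naive. Ccr4, Ccr10 and Ccr9 were at 9.82, 6.67 and 7.39 in TT naive cells, all within 1 log2 unit of cTh1. Cxcr3 and Cxcr6, receptors of Th1 cells, were 0.73 and 0.91 higher in cTh1 than on the array labelled naive, and 2.77 and 3.69 higher than in TT naive cells. Of 19 measured receptors, 16 passed the filter, with 2 at least 2-fold higher and 4 lower. With TT naive cells as the baseline 6 were higher and none lower, so the balance turned with the baseline.

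Secreted factors beyond those described so far also differed. Il10, the cytokine that restrains immune responses, was at 8.28 in cTh1, 4.92 in nTh1, 4.77 in TT naive and 5.41 on the array labelled naive. Ccl22, a chemokine that draws CCR4-bearing cells, was at 7.93 in cTh1 and 5.84 on the array labelled naive, and Ccl3 at 8.13 in cTh1 and 6.86 on the array labelled naive. These stood highest in cTh1 of the 4 arrays. The helper T cell cytokines of other lineages were lower than on the array labelled naive, or dim. Il13, of Th2 cells, was at 7.58 in cTh1 and 10.42 on the array labelled naive. With 7.48 in nTh1 and 8.11 in TT naive cells, it was the array labelled naive that stood apart for Il13. Il21, of follicular helper cells, was at 7.13 in cTh1, 6.44 in nTh1, 8.99 in TT naive and 8.53 on the array labelled naive. Il17a, of Th17 cells, and Il5, of Th2 cells, did not pass the filter. Gata3, the factor of Th2 cells, differed by 0.06, Rora, of Th17 cells, by 0.12 and Bcl6, the factor of follicular helper cells, by 0.96. Of 36 measured cytokine and chemokine genes, 25 passed the filter, with 6 past 2-fold higher and 5 lower, and with 10 higher and 2 lower against TT naive cells.

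Adhesion and lineage genes were mostly alike. Icam1, the ligand of LFA-1, was at 10.40 in cTh1 and 9.18 on the array labelled naive, Alcam, which binds CD6, at 8.78 in cTh1 and 7.72 on the array labelled naive, and Itgal, a chain of LFA-1, differed by -0.19. Bcl11b, Ets1, Runx1 and Satb1, factors that hold T cell identity, lay between -0.16 and 0.13. Genes of immature thymocytes were split. Sox4 was at 5.79 in cTh1, 8.46 in nTh1, 7.93 in TT naive and 8.55 on the array labelled naive, lowest in cTh1, and a second Sox4 probe set differed by -1.04. Myb, a factor of progenitors, was at 10.07 in cTh1 and 11.23 on the array labelled naive. Themis, which sets receptor signal strength in thymocytes, was at 11.73 in cTh1 and 10.40 on the array labelled naive, and Dntt, the enzyme that adds bases at receptor gene joints, at 8.58 in cTh1, 9.47 in nTh1, 7.46 in TT naive and 6.87 on the array labelled naive.

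Most naive cell genes were at similar levels on both arrays. Il7r was at 12.78 in cTh1 and 12.65 on the array labelled naive, Ccr7, the receptor for lymph node entry, at 12.63 in cTh1 and 12.32 on the array labelled naive, and Lef1, a factor of T cell stemness, at 12.53 in cTh1 and 12.63 on the array labelled naive. Klf2 and its target S1pr1, the receptor for exit from lymphoid organs, were 0.57 and 0.45 higher in cTh1, but Klf2 was -0.24 against TT naive cells. Of 24 measured naive and egress genes, 19 lay within 2-fold, 3 were higher and 2 lower, and the median was 0.27 against the array labelled naive and -0.22 against TT naive cells. The higher ones were Ly6c1, at 9.11 in cTh1 and 5.60 on the array labelled naive, Cd55, the complement regulator, at 8.67 in cTh1 and 6.52 on the array labelled naive, and Dapl1, at 11.70 in cTh1 and 9.90 on the array labelled naive. TT naive cells had more of the last 2 than cTh1, at 9.49 for Cd55 and 12.11 for Dapl1, so these differences depended on the baseline. Cd44, the adhesion receptor of antigen-experienced cells, was at 8.69 in cTh1 and 8.75 on the array labelled naive, against 7.44 in TT naive cells. Itgae, the integrin chain CD103, was at 6.42 in cTh1, 6.71 in TT naive and 8.03 on the array labelled naive.

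Glycolysis and the response to low oxygen made up the most one-sided metabolic group. The 34 measured genes had 33 above the filter, and 23 of them reached 2-fold higher, with none lower. The median was 1.44 against the array labelled naive and 1.68 against TT naive cells. The glucose transporter Slc2a1 was at 12.51 in cTh1 and 10.78 on the array labelled naive, and Slc2a3 at 11.75 in cTh1 and 9.37 on the array labelled naive. Hexokinase 2, Hk2, was at 9.27 in cTh1 and 7.14 on the array labelled naive, whereas its housekeeping relative Hk1 differed by 0.40. All 3 phosphofructokinase genes were above 2-fold, with Pfkp at 12.09 in cTh1 and 10.89 on the array labelled naive and Pfkm at 1.08. Tpi1, triosephosphate isomerase, was at 12.68 in cTh1 and 11.37 on the array labelled naive. Aldoc, an aldolase isoform best known from brain, was at 11.67 in cTh1 and 7.43 on the array labelled naive, 18.9-fold higher. Other late enzymes were under 2-fold, with Gapdh at 0.39, Pgk1 at 0.59, Pkm at 0.80 and Ldha at 0.26. Of the lactate carriers, Slc16a3 (MCT4) was at 10.03 in cTh1 and 7.70 on the array labelled naive, and Slc16a1 (MCT1) at 10.18 in cTh1 and 10.46 on the array labelled naive. A second, dimmer Slc2a1 probe set differed by 0.35.

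The factor of the low-oxygen response and its classical targets were higher together. Hif1a, the regulated subunit of the factor HIF-1, was at 12.19 in cTh1, 10.30 in nTh1, 10.41 in TT naive and 10.68 on the array labelled naive. Egln3, a prolyl hydroxylase that marks that subunit for decay and is itself induced by it, was at 12.82 in cTh1, 8.11 in nTh1, 7.27 in TT naive and 9.09 on the array labelled naive. Its relative Egln1 was at 11.58 in cTh1 and 10.06 on the array labelled naive. Ak4, an adenylate kinase of mitochondria, was at 10.81 in cTh1 and 7.59 on the array labelled naive, and Bnip3, which drives mitophagy, at 10.23 in cTh1 and 7.02 on the array labelled naive. The collagen prolyl hydroxylases P4ha1 and P4ha2 were 1.79 and 2.51 higher, beside Plod2. Vegfa, the vascular growth factor, was at 10.33 in cTh1 and 7.84 on the array labelled naive. Adm and Car9, also targets in other cells, were only 0.50 and 0.34 higher, and Adm did not pass the filter.

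The core letters of the hypoxia response element, ACGTG, were searched on both strands of the 250 bases before each annotated start, in RefSeq promoters of build GRCm38.p6. Of the 30 listed genes with a promoter in that table, 21 (70.0%) held the letters, against 18.5% of all 27025 genes of the table and 20.4% of its 16918 genes on the array. The list was put together from known targets of the low-oxygen response, so this share describes how it was chosen as much as these cells. A match is also the inner part of the E-box CACGTG, which other factors read. The promoters of the 4 matching genes with the largest differences are shown, with matches in capitals, each on its gene's strand from 5′ to 3′. They lie at chr12:54203875-54204124 (Egln3, minus strand), chr4:101419453-101419702 (Ak4, plus strand), chr7:138909507-138909756 (Bnip3, minus strand) and chr11:54100674-54100923 (P4ha2, plus strand), all upstream of the annotated start.
Egln3: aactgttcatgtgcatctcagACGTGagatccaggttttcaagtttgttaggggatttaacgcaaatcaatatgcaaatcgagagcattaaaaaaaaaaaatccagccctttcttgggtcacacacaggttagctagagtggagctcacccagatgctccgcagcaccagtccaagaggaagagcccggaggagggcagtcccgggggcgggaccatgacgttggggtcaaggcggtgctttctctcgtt
Ak4: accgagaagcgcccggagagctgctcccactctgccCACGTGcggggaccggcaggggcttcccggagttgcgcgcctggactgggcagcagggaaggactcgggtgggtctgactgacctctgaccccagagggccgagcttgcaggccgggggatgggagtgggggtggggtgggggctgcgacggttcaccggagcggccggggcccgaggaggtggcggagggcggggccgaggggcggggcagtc
Bnip3: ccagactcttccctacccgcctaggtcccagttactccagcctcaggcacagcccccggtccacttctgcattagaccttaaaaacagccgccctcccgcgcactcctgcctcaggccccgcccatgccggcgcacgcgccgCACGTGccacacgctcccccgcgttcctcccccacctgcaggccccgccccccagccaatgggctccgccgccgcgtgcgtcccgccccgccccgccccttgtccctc
P4ha2: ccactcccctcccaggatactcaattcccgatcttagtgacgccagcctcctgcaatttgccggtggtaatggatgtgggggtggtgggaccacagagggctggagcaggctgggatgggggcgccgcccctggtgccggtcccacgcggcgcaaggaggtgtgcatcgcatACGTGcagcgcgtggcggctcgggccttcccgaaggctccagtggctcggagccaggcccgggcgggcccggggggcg
In Ak4 and Bnip3 the match was the full palindrome CACGTG, and in Egln3 and P4ha2 it was not. The promoter of Ldha, which differed by only 0.26, held 5 matches counted on both strands.

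Sterol synthesis genes were higher at most steps and differed least at the last ones. Sqle, squalene epoxidase, was at 9.81 in cTh1, 7.28 in nTh1, 7.91 in TT naive and 6.58 on the array labelled naive. Fdps, which makes farnesyl diphosphate, was at 11.55 in cTh1 and 9.66 on the array labelled naive, and Cyp51, which removes a methyl group from lanosterol, at 9.73 in cTh1 and 7.87 on the array labelled naive. Insig1, the sterol sensor that holds SREBP back and is induced by it, was at 10.64 in cTh1 and 9.24 on the array labelled naive, and Srebf2, the gene of SREBP-2, at 11.54 in cTh1 and 10.29 on the array labelled naive. Srebf1 differed by 0.17. The last enzymes of the pathway, Ebp, Dhcr7 and Sc5d, were only 0.06, 0.31 and 0.37 higher. The exporters of cholesterol, which liver X receptors induce, were lower. Abca1 was at 8.04 in cTh1, 9.33 in nTh1, 9.50 in TT naive and 10.33 on the array labelled naive, and Abcg1 at 10.57 in cTh1 and 11.37 on the array labelled naive. Of 23 measured genes, 14 were at least 2-fold higher and Abca1 alone lower, with a median of 1.14.

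**Figure D3:**
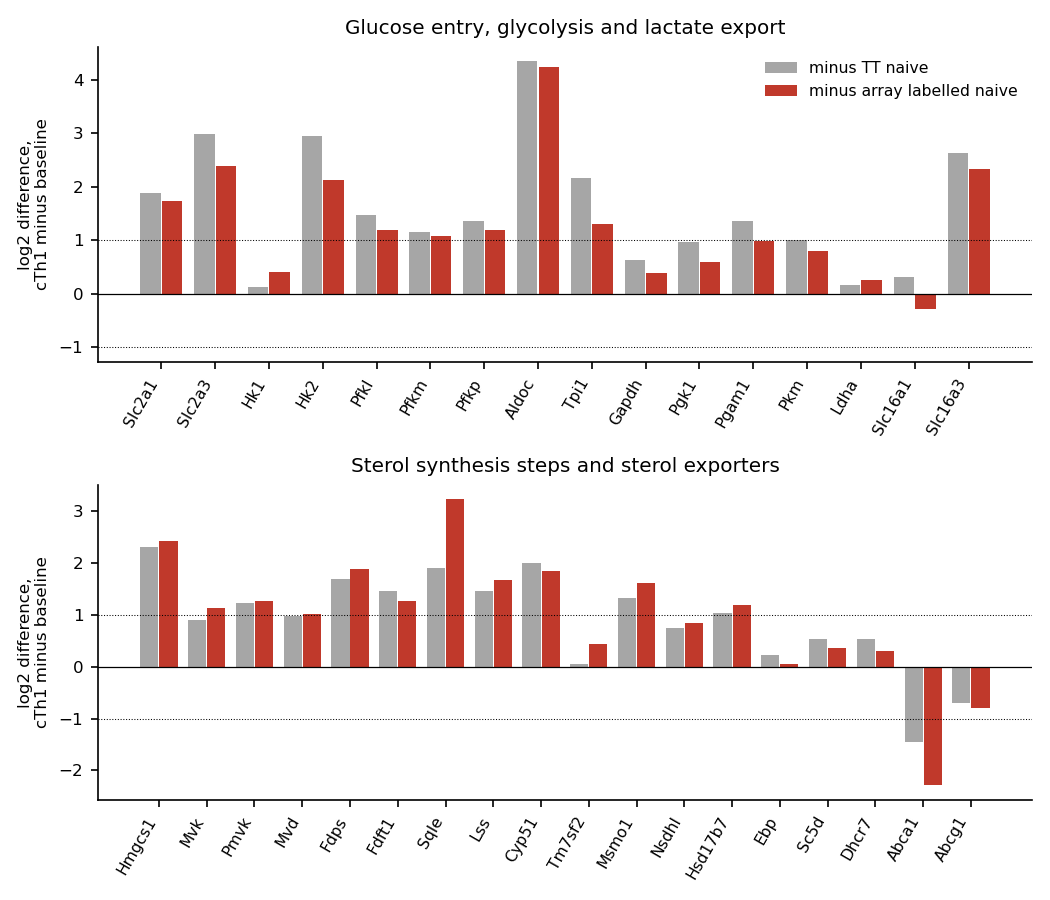
Bars give the log2 difference (y axis) of cTh1 minus TT naive (grey) and minus the array labelled naive (red) for genes in the order of the pathway, with dotted lines at 2-fold. The glucose transporter, hexokinase 2 and phosphofructokinase bars pass the upper line with both baselines, and Abca1 passes the lower line with both.

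Of 18 sterol list genes with a promoter in the table, 1 held the sterol regulatory element TCACNCCAC in those 250 bases on either strand, 5.56% against 1.22% of all 27025 genes, and none of 20 fatty acid genes did. The gene was Hmgcs1, the synthase before the mevalonate step, at 11.01 in cTh1 and 8.59 on the array labelled naive. Its promoter, at chr13:119690101-119690350 on the plus strand of GRCm38.p6, is shown because that element was found there, in capitals.
Hmgcs1: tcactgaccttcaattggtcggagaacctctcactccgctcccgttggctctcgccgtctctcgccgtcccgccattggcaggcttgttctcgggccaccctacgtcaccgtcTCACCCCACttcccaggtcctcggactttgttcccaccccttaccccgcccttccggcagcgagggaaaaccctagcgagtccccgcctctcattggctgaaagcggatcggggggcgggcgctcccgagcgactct
With 1 match among 18 genes the share describes this window only.

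Fatty acid genes were split between remodelling and synthesis from scratch. The desaturases Scd1, Fads2 and Fads1 were 4.94, 4.45 and 1.34 higher, with Fads2 at 11.41 in cTh1, 8.88 in nTh1, 6.09 in TT naive and 6.95 on the array labelled naive. Fads3 differed by -0.02. The elongases Elovl5 and Elovl6 were at 12.26 and 11.05 in cTh1, against 11.10 and 9.90 on the array labelled naive. Me1, malic enzyme, which yields NADPH, was at 7.51 in cTh1 and 4.85 on the array labelled naive, and Hilpda, a lipid droplet protein of the low-oxygen response, at 9.93 in cTh1 and 8.15 on the array labelled naive. The enzymes that build palmitate were not higher. Fasn, fatty acid synthase, was at 11.18 in cTh1 and 11.51 on the array labelled naive, and Acly, which supplies their acetyl-CoA, differed by -0.28. Of 23 measured genes, 21 passed the filter and 8 were past 2-fold, all higher, and the median over all 23 was 0.38.

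Mitochondrial and degradative machinery differed little. Of 38 measured subunits of oxidative phosphorylation, 37 lay within 2-fold, with a median of -0.17, against 0.02 with TT naive cells as the baseline. The exception was Ndufa4, at 9.19 in cTh1 and 10.42 on the array labelled naive. In the tricarboxylic acid cycle the cytosolic Idh1, which yields NADPH, was at 9.23 in cTh1 and 7.36 on the array labelled naive, Idh3a, a subunit of the mitochondrial enzyme, at 9.04 in cTh1 and 10.21 on the array labelled naive, and the other 21 of 23 genes were within 2-fold. None of 27 proteasome genes reached 2-fold, and the median was -0.34. Pdk1, which keeps pyruvate out of mitochondria, was at 10.83 in cTh1 and 9.34 on the array labelled naive.

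Amino acid and one-carbon genes leaned lower. Shmt1, a serine hydroxymethyltransferase, was at 7.45 in cTh1 and 8.80 on the array labelled naive, Phgdh, the first enzyme of serine synthesis, at 8.19 in cTh1 and 9.30 on the array labelled naive, and the transporters Slc7a6 and Slc7a1 were at -1.17 and -1.14. Asns, asparagine synthetase, was at 9.63 in cTh1 and 8.12 on the array labelled naive, and Ddit4, a brake on mTORC1 induced by low oxygen, at 11.52 in cTh1 and 10.16 on the array labelled naive. TT naive cells were at 7.34 for Asns and 11.35 for Ddit4. Of 33 measured genes, 31 passed the filter, with 2 past 2-fold higher and 6 lower. The median of -0.28 became 0.11 against TT naive cells, where 2 were higher and none lower. Steap3, a ferrireductase, was at 7.24 in cTh1, 7.85 in TT naive and 9.54 on the array labelled naive. Against the last it was the 1 iron gene of 9 past 2-fold.

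Genes of mitosis and of DNA replication differed little between the cTh1 array and the array labelled naive. In the mitosis list 36 of 37 measured genes were higher, 2 of them by 2-fold, with a median of 0.51. Prc1, a spindle midzone protein, was at 10.30 in cTh1, 7.89 in nTh1, 8.03 in TT naive and 9.22 on the array labelled naive. Against TT naive cells 30 were past 2-fold higher and the median was 1.56. Replication genes leaned the other way. All 6 subunits of the MCM helicase were lower, the least at -0.21, with Mcm2 just short of 2-fold at 10.16 in cTh1 and 11.16 on the array labelled naive, and the median of 34 measured replication genes was -0.31, none of them past 2-fold. That median was 0.29 against TT naive cells. Mki67 did not differ, at 11.23 in cTh1 and 11.22 on the array labelled naive.

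Of 7 measured inhibitors of cyclin-dependent kinases, 1 was past 2-fold, and their median was 0.34. Cdkn1a, the p21 inhibitor of cyclin-dependent kinases, was at 12.13 in cTh1, 7.39 in nTh1, 6.63 in TT naive and 7.77 on the array labelled naive, 20.6-fold higher than on the last. Gadd45g, a stress and cytokine response gene, was at 10.24 in cTh1 and 7.41 on the array labelled naive, and Ccng2, an atypical cyclin of resting cells, at 10.78 in cTh1 and 9.54 on the array labelled naive. Cdkn1b and Cdkn2d were 0.82 and 0.84 higher. Cdkn2a, Cdkn2b and Cdkn2c were 0.24, 0.28 and 0.34 higher, and Cdkn1c was at -0.48. The p53 target Mdm2 differed by 0.16. Among BCL2 family genes, Bcl2l11, the death inducer BIM, was at 10.94 in cTh1 and 9.67 on the array labelled naive, and the survival genes Bcl2 and Mcl1 were 0.32 and 0.37 higher.

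Interferon-induced genes differed in both directions. Several genes strongly induced by interferon gamma were higher. Irgm2, an immunity-related GTPase, was at 11.14 in cTh1 and 9.33 on the array labelled naive, and Gbp5, a guanylate-binding protein, at 9.37 in cTh1 and 7.56 on the array labelled naive. Of these GTPases, all 9 measured were higher and 5 by at least 2-fold, with a median of 1.17. Ifitm1 and Ifitm3, which block virus entry, were at 10.38 and 10.88 in cTh1, against 5.96 and 7.63 on the array labelled naive. Several antiviral genes best known from type I interferon were lower. Oas2, which makes the activator of RNase L, was at 7.01 in cTh1, 11.32 in nTh1, 11.29 in TT naive and 10.94 on the array labelled naive. All 4 OAS family genes were at least 2-fold lower, between -3.93 and -1.68. Ifit1 was at 8.40 in cTh1 and 10.66 on the array labelled naive, Rsad2 (viperin) at 6.85 in cTh1 and 9.04 on the array labelled naive, and Irf7, the factor that amplifies type I interferon, at 9.75 in cTh1 and 11.01 on the array labelled naive. Ifit2 and Ifit3 did not follow Ifit1, at -0.06 and 0.16. For Oas2, Ifit1, Rsad2 and Irf7 the 3 arrays of uncultured cells all lay above cTh1. Of 37 measured genes in the list, 34 passed the filter, with 7 at least 2-fold higher, 12 lower and 15 within 2-fold.

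**Figure D4:**
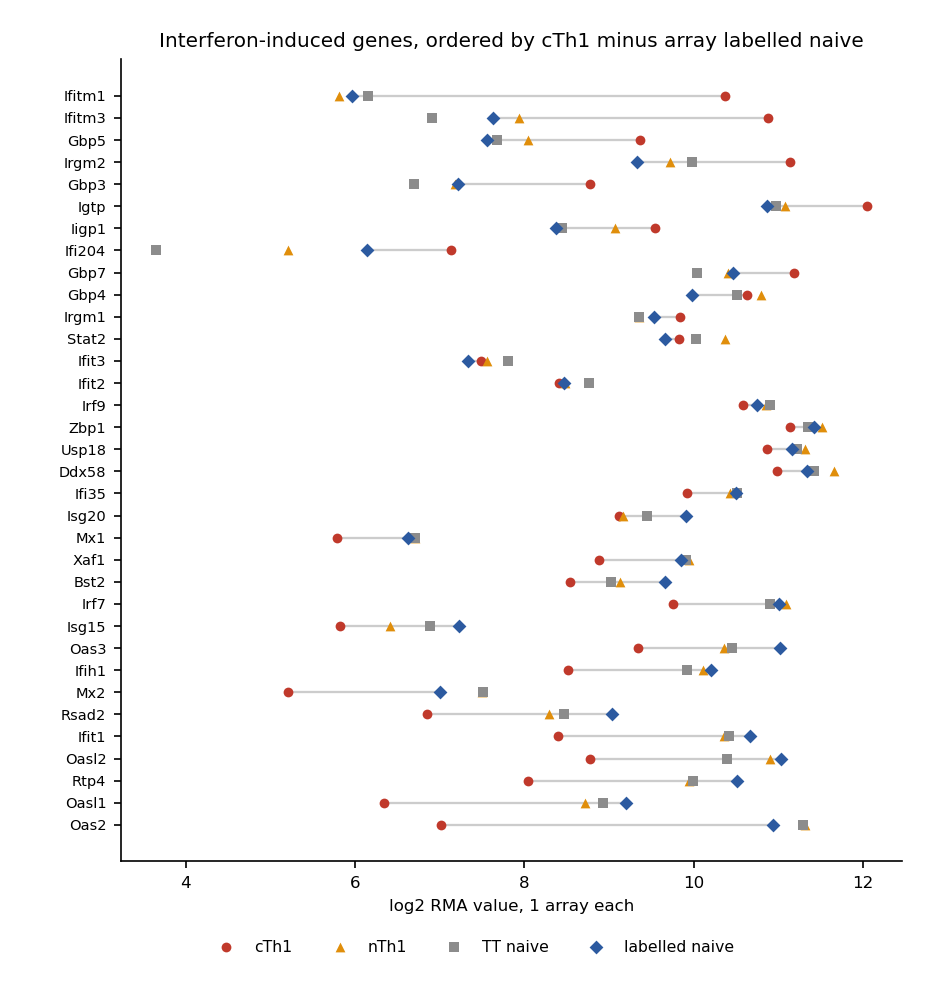
Log2 RMA values (x axis) of the interferon-induced genes above the level filter on the 4 arrays, in order of the difference between cTh1 (red circle) and the array labelled naive (blue diamond), which a grey line joins. At the top Ifitm1, Ifitm3 and the GTPases have cTh1 on the right, and at the bottom Oas2, Oasl1, Rtp4 and Ifit1 have it on the left of all 3 other arrays.

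Chaperones and the machinery that makes ribosomes were lower in cTh1. All 21 measured ribosome biogenesis genes were lower, 7 of them by at least 2-fold, with a median of -0.73. Against TT naive cells 3 were, with a median of -0.68. Polr1b, a subunit of RNA polymerase I, was at 8.20 in cTh1, 9.41 in nTh1, 9.48 in TT naive and 9.65 on the array labelled naive, and Nop58, a core protein of small nucleolar particles, at 8.55 in cTh1 and 9.94 on the array labelled naive. Npm1, the abundant nucleolar protein, differed by only -0.13. Myc, which drives these genes in many cells, was at 11.07 in cTh1 and 10.14 on the array labelled naive. Small nucleolar RNAs had a median of -0.41 over 73 genes. Of the 61 above the filter, 1 was at least 2-fold higher and 8 lower. Against TT naive cells 8 were higher and 15 lower of 64.

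Among heat shock genes, Hspa1b, the inducible HSP70, was at 6.44 in cTh1, 8.58 in nTh1, 10.83 in TT naive and 9.19 on the array labelled naive, and Hsph1, its partner, at 7.99 in cTh1 and 9.87 on the array labelled naive. Hspa8, the constitutive HSC70, differed by -0.09. Hspa5 (BiP) and Dnajb9, chaperones of the endoplasmic reticulum, were at 9.39 and 9.56 in cTh1, against 10.93 and 11.35 on the array labelled naive, while Xbp1 and Atf6, sensors and factors of the same stress response, were at -0.09 and -0.13. Of 20 measured heat shock genes none was at least 2-fold higher and 5 were lower.

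**Figure D5:**
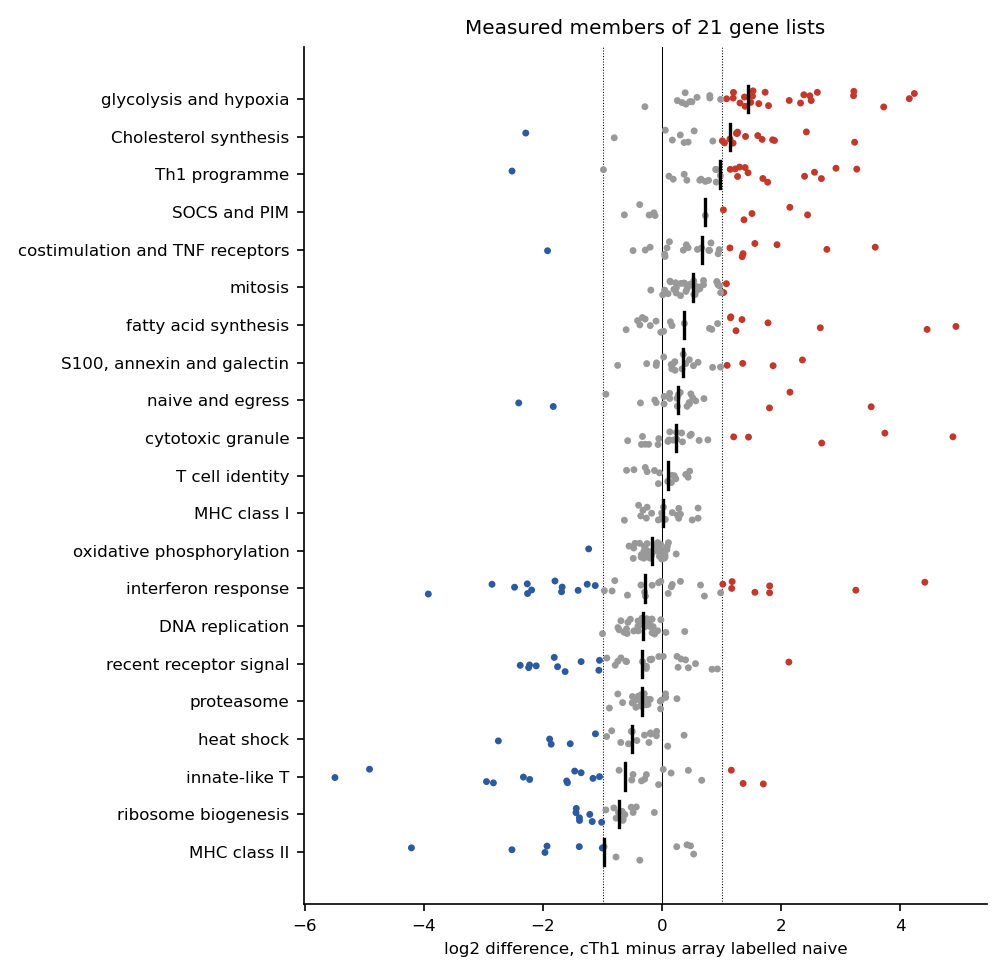
Each point is a measured gene of the list named on the left, placed by its log2 difference of cTh1 minus the array labelled naive (x axis), red or blue past 2-fold whether or not it passed the level filter, and black bars are list medians. Glycolysis and hypoxia, sterol synthesis and Th1 genes have the highest medians of the lists shown, 1.44, 1.14 and 0.98, and ribosome biogenesis and MHC class II the lowest, -0.73 and -0.97.

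Antigen presentation genes differed in class II and not in class I. H2-Aa was at 10.73 in cTh1 and 12.66 on the array labelled naive, and H2-Eb1 at 10.53 in cTh1 and 12.49 on the array labelled naive. H2-DMb1, which takes part in class II peptide loading, was at 6.44 in cTh1 and 8.96 on the array labelled naive. Ciita, the activator of these genes, was at 8.00 in cTh1 and 7.59 on the array labelled naive and so did not go with them. None of 20 class I presentation genes reached 2-fold. B2m, the common light chain, was at 13.89 in cTh1 and 13.90 on the array labelled naive. The lowest difference of the list was that of H2-Eb2, at 8.18 in cTh1, 11.19 in TT naive and 12.39 on the array labelled naive. Of 13 measured class II genes, none was at least 2-fold higher and 6 were lower, with a median of -0.97. Against TT naive cells 1 was higher and 5 were lower, with a median of -0.38. The array labelled naive had H2-Aa as high as nTh1 cells, which carry the CIITA transgene, as TT naive cells do. The sizes in this group therefore depend on the baseline.

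Cytoskeletal and migration genes showed smaller groups of differences. Anxa1 and Anxa4, calcium-dependent membrane-binding annexins, were at 8.43 and 8.20 in cTh1, against 6.07 and 6.33 on the array labelled naive, and all 6 measured annexins were higher. None of the 7 measured S100 genes reached 2-fold, and S100a4 and S100a6, known from effector T cells, were at -0.09 and 0.03. Those genes were well above TT naive cells, S100a6 at 9.98 in cTh1 and 7.87 in TT naive. Gimap7, a GTPase of lymphocyte survival, was at 11.12 in cTh1, 7.55 in nTh1, 7.92 in TT naive and 7.76 on the array labelled naive, and the other 7 GIMAP genes were between 0.21 and 1.00 higher, with Gimap3 just past 2-fold. A second probe set of Gimap1 differed by 3.93, against 0.87 for the one used.

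Genes of other cell types differed too, and stand beside the results above. The B cell receptor gene Cd79b was at 10.57 in cTh1, 8.46 in nTh1, 7.41 in TT naive and 7.23 on the array labelled naive, and Spib, a B cell factor, at 9.01 in cTh1 and 5.78 on the array labelled naive. Of 20 measured B cell genes, 18 passed the filter, with 12 past 2-fold higher and 1 lower. Of 20 immunoglobulin segments, which are uncertain because the family is large, 14 passed the filter and all 14 were at least 2-fold higher. Their median level was 8.06 in cTh1 and 5.77, below the filter, on the array labelled naive. A segment that passed only through cTh1 had to be higher there, so this count was partly set by the filter. The same limit applies to genes of other lists that passed through cTh1 alone. Without the filter all 20 segments were higher, with a median of 2.09. Pax5, which defines B cells, was at 7.51 in cTh1 and 6.88 on the array labelled naive. Of 8 plasma cell genes, 6 passed the filter, with 3 past 2-fold higher and none lower, and the median over all 8 was -0.15 (0.43 against TT naive cells). Jchain, the joining chain of antibodies, was at 8.45 in cTh1 and 5.23 on the array labelled naive, and Sdc1, a defining plasma cell marker, was below the filter at 6.05 in cTh1 and 6.31 on the array labelled naive. Cd8a and Cd8b1 were at 10.31 and 10.75 in cTh1, against 6.31 and 8.45 on the array labelled naive. The CD8 T cell list had 4 of 8 genes past 2-fold higher, among them Gzmk and Klrd1, and 2 lower, Eomes and Cd160, against 5 higher and none lower with TT naive cells as the baseline. Klrc1, the NK receptor NKG2A, was at 9.58 in cTh1 and 6.99 on the array labelled naive, but Klra9, another killer cell lectin receptor, was at 5.02 and 9.41. Of 7 NK receptor genes above the filter, 3 were past 2-fold higher and 1 lower (6 and 1 against TT naive cells). The NK cell list, with 7 above the filter, had 1 higher and 2 lower (3 higher and none lower against TT naive cells). Ncr1, which defines NK cells, was below the filter on both arrays, at 5.37 in cTh1 and 5.44 on the array labelled naive. Of 26 myeloid genes, 14 passed the filter, with 1 past 2-fold higher and 3 lower (4 higher and none lower of 13 against TT naive cells). Cd14 was at 5.13 on both arrays and C1qb at 6.61 in cTh1 and 8.59 on the array labelled naive. The median level of the B cell list was 8.29 in cTh1, 7.11 in nTh1, 6.29 in TT naive and 6.67 on the array labelled naive, and that of the 8 CD8 T cell genes was 9.47 in cTh1 and 7.75 on the array labelled naive. Irf8, Cd80 and the class II genes are also made by B cells. The part of B cells, CD8 T cells and other cells in the T cell results, the granzymes included, was not tested.

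MicroRNA genes were named after their values were seen. Of 483 on the array, 131 passed the filter, with 6 past 2-fold higher, 5 past 2-fold lower and a median of 0.04 over those 131. These counts are near the shares over all genes, 5.13% higher and 3.35% lower, so microRNA genes did not stand out as a group. A probe set on such a gene may read the host transcript or the precursor, so it does not measure the mature microRNA. Mir342 was at 8.08 in cTh1, 7.61 in nTh1, 8.49 in TT naive and 5.88 on the array labelled naive, so it was the array labelled naive that stood apart. Mir181b-1, of a family that tunes T cell receptor sensitivity in thymocytes, was at 6.17 in cTh1, 7.53 in nTh1, 8.72 in TT naive and 8.49 on the array labelled naive. Mir340 was at 6.66 in cTh1 and 4.98 on the array labelled naive, with 7.33 in nTh1. The mature forms of these 3 genes in RefSeq are shown, with the seed (bases 2 to 8), which pairs with targets, in capitals. Their first arms lie at chr12:108658638-108658659 (miR-342), chr1:137966650-137966673 (miR-181b) and chr11:50069720-50069741 (miR-340), all on the plus strand of GRCm38.p6.
mmu-miR-342-5p: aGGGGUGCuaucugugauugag
mmu-miR-342-3p: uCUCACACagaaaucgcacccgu
mmu-miR-181b-5p: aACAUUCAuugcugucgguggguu
mmu-miR-181b-1-3p: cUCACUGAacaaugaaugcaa
mmu-miR-340-5p: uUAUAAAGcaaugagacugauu
mmu-miR-340-3p: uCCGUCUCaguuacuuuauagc
The 11 genes past 2-fold encode 19 mature forms in that table, and no 2 of them share a seed.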

How the data were processed

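RNA of 4 samples, 300 ng each, was measured on Affymetrix mouse gene arrays, 1 array for each group. The deposited values are log2 summaries of 41345 probe sets, and the submitters' processing notes name RMA and Affymetrix Expression Console (version 1.3.1). The sources used here do not say which arrays were normalised together.

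Of the probe sets, 23521 carried 1 gene symbol in the platform's annotation, 1814 several and 16010 none. The first class gave 22180 genes. A gene was counted where it reached the median of all values, 6.61, on either array and differed by at least 2-fold. Named genes were drawn from the 15 highest and lowest, those of each list with the largest and smallest differences, the core lists and 5 markers. Not every gene of these groups is printed. Other named genes were added to describe a family or a baseline after their values were seen. The members and the 55 gene lists were chosen with earlier results of these data known. Motifs and sequences came from RefSeq tables of build GRCm38.p6. Counting was tested on simulated data. The software was Python 3.11.15 with pandas 2.3.3, numpy 2.4.6, statsmodels 0.14.6, scipy 1.17.1 and matplotlib 3.10.9. Alternatives changed the filter, centring, a loess trend (span 0.3), the probe set rule, the fold, the baseline array and the probe sets counted. The number of arrays limits the precision.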

Additional observations from a re-analysis of the deposited data

How the results depend on the processing

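Each group is 1 array, so no setting gives a replicate error. No paired analysis was possible because each group holds 1 array. Against 659 higher and 430 lower genes, a 3-fold threshold gave 271 higher and 157 lower. Probe sets without exactly 1 gene symbol gave 344 higher and 559 lower of 8051, so 38.1% of their differences were higher, against 60.5% for named genes, and with TT naive cells as the baseline 70.6% were. Both counts stayed within 1.5 times under the other filters, centring, loess and mean of probe sets, with 478 to 696 higher and 319 to 462 lower. The 55 list medians moved by less than the probe set spread under loess and the mean of probe sets, though the myeloid median of -0.01 was 0.06 with loess. They were taken over all measured members, so dropping the filter could not move them. Centring shifted all 55 by 1 small constant, so these 2 settings do not test them. With TT naive as the baseline 12 moved by more, and with the 75th percentile filter 10 did. Among named genes at least 2-fold apart, the sign turned with the TT naive baseline for Cd55 (-0.82), Dapl1 (-0.41), Mir342 (-0.40), Nrp1 (0.13), Vdr (0.14) and Xcl1 (0.13), and the cause was not tested.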
